A study of Mus musculus with 9 samples.

Results

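The genes described here are 8 genes used as a readout of systemic stress: 5 genes that glucocorticoid hormones raise in many tissues (Fkbp5, Tsc22d3, Sgk1, Zbtb16 and Pdk4), the gene for the glucocorticoid receptor itself (Nr3c1), and the metallothionein genes Mt1 and Mt2. They were taken by symbol from 53924 named rows. Each symbol has 1 row, and all 8 were among the 16634 genes with enough counts to test. RNA from mouse cerebellum was sequenced in 9 libraries. The 3 PLX3AP libraries come from mice given PLX3397, an inhibitor of the CSF1 receptor used to deplete microglia, and then 3-acetylpyridine (3-AP). The 3 3AP libraries come from mice given 3-AP alone, a nicotinamide analogue that damages the inferior olive and causes ataxia. The 3 control libraries come from mice given saline. The sources used here do not give strain, sex, age, doses, the hour of killing or the interval after 3-AP, and no PLX3397 group without 3-AP was analysed here. Nothing in the labels ties a library to a single animal, so p-values measure the spread between these libraries, which may be technical.

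Glucocorticoids, released by the adrenal cortex in stress and with a daily rhythm, bind a receptor held in the cytoplasm by heat shock proteins. The bound receptor enters the nucleus and activates genes at glucocorticoid response elements. FKBP5 is a co-chaperone that lowers the receptor's affinity for hormone, so that its induction is a feedback loop. Metallothioneins are small cysteine-rich proteins that bind zinc and copper. Glucocorticoids, metals, oxidants and inflammatory cytokines can all raise Mt1 and Mt2, which in brain are made mainly by astrocytes and vascular cells.

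Library totals ran from 18452256 to 22358447 estimated counts. The tissue label was met by its markers: in every library the summed level of 6 Purkinje cell markers was 6700 to 8347 CPM (counts scaled to library size) and that of 6 granule cell markers 3333 to 4263 CPM. The choroid plexus list (Ttr and 4 others) varied from 25.4 to 3930 CPM between libraries, within every group, and none of its 5 genes passed in any comparison.

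By level scaled to transcript length and library size (TPM), the metallothioneins stood far above the other members in all groups. Mt1 averaged 2790 ± 611 TPM in PLX3AP, 4080 ± 1205 in 3AP and 1897 ± 161 in control (SD, n = 3 each). Mt2 followed at 1869 ± 525, 1886 ± 437 and 1621 ± 136 TPM in the same groups. In control the Mt1 and Mt2 libraries overlapped in level, while in 3AP each Mt1 value lay above each Mt2 value. Tsc22d3 (138 ± 22.3, 123 ± 3.59 and 158 ± 11.7 TPM) and Sgk1 (112 ± 25.9, 93.2 ± 14.3 and 107 ± 13.0 TPM) came next, overlapping in PLX3AP alone. Nr3c1 stood at 23.7 ± 1.94, 24.5 ± 1.46 and 26.1 ± 4.38 TPM and Fkbp5 at 10.03 ± 3.28, 17.8 ± 3.24 and 14.1 ± 2.28 TPM. Pdk4 and Zbtb16 were lowest, and their order differed between groups. Pdk4 averaged 8.50 ± 3.35 TPM in PLX3AP, 6.45 ± 0.705 in 3AP and 5.57 ± 0.997 in control, and Zbtb16 4.003 ± 1.88, 5.46 ± 1.70 and 8.00 ± 1.01 TPM, with overlapping libraries in PLX3AP and in 3AP.

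**Figure D1:**
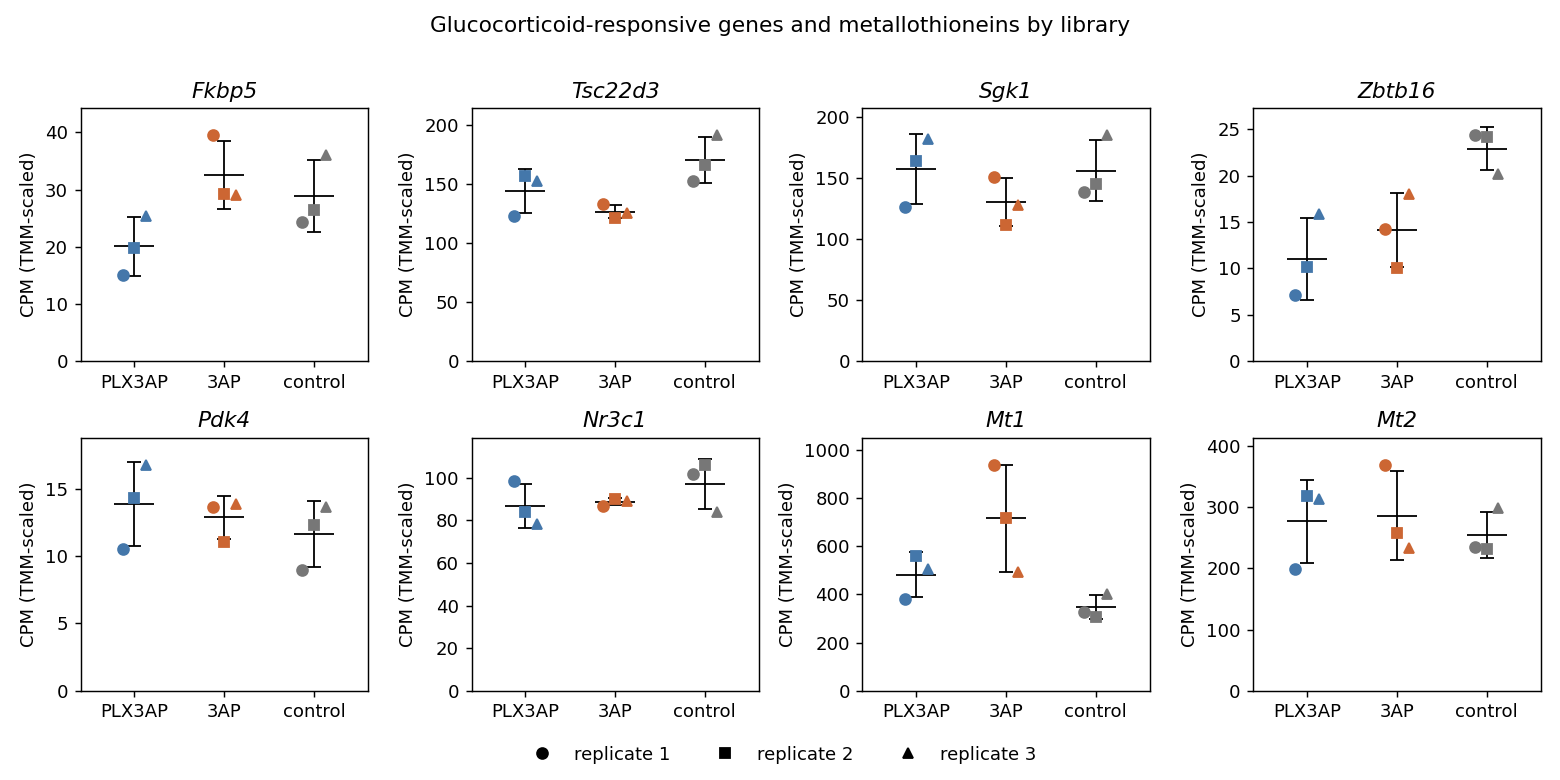
CPM (TMM-scaled, linear axis from 0) of the 8 genes in each library, with the group mean (line) and SD (bars) of 3 libraries; the marker shape gives the replicate number. The 3AP libraries lie above control for Mt1 and below it for Tsc22d3 and Zbtb16, and the PLX3AP libraries lie below 3AP for Fkbp5.

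The comparison of 3AP with control asks whether 3-AP was followed by a glucocorticoid-type response in the cerebellum. The 5 hormone-inducible genes did not rise together. Tsc22d3 fell, Mt1 rose, and the other 6 members did not pass. In this comparison 1 of 8 members was called higher, where 3.75% of all tested genes were, and 1 lower, where 1.18% were (4.93% in either direction). With an unadjusted p under 0.05 there were 3 (Tsc22d3, Mt1 and Zbtb16), a cut at which the share over all tested genes was not counted. The median log2 fold change of the members was 0.007, against 0.0012 over all tested genes.

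Tsc22d3 encodes GILZ, a leucine zipper protein through which glucocorticoids restrain NF-kB and AP-1, and lies at chrX:140539528-140600659 (GRCm38, minus strand). It was at 132.5, 121.1 and 125.4 CPM in the 3AP libraries, against 152.5, 166.2 and 190.8 CPM in control. All 3AP libraries were below all control libraries. The log2 fold change was -0.43 (SE 0.10, 3 libraries per group, edgeR adjusted p 0.032). In bulk tissue, fewer cells of a type and less RNA per cell cannot be told apart. Leaving out control replicate 2 or 3, or any 1 of the 3AP replicates (1, 2 or 3), ended the call (adjusted p 0.078 to 0.12), as did limma on the authors' TPM values (0.16 to 0.28), with the same direction throughout.

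Fkbp5 stood at 39.5, 29.2 and 29.1 CPM in 3AP, against 24.3, 26.4 and 36.1 CPM in control. The groups overlapped (log2 fold change 0.17, SE 0.21, edgeR adjusted p 0.75). Fkbp5 (chr17:28399094-28517527, minus strand) is overlapped by 4 other genes in GENCODE M21, on both strands, which share 0 exonic bases with it, and its estimated counts were whole in all 9 libraries. Sgk1, a kinase that regulates ion channels and transporters, was at 151.3, 111.7 and 128.5 CPM in 3AP and at 138.6, 145.1 and 185.2 CPM in control. These also overlapped (log2 fold change -0.26, SE 0.16, edgeR adjusted p 0.48). Pdk4, a kinase that shuts pyruvate out of oxidation when fat is the fuel (chr6:5483351-5496309, minus strand), was at 13.7, 11.1 and 13.9 CPM in 3AP and at 8.94, 12.3 and 13.7 CPM in control (log2 fold change 0.15, SE 0.19, edgeR adjusted p 0.76). The interval of Pdk4 (95%, on the degrees of freedom of the test) ran from -0.27 to 0.56 on the log2 scale, that of Fkbp5 from -0.30 to 0.64 and that of Sgk1 from -0.62 to 0.10.

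Zbtb16 encodes PLZF, a zinc finger repressor, at chr9:48654297-48836222 (minus strand). It was at 14.2, 10.03 and 18.0 CPM in 3AP and at 24.3, 24.1 and 20.2 CPM in control. The 3AP libraries all lay below control, as 3 of the 8 members were separated in this comparison where 24.7% of all tested genes were. The change did not pass (log2 fold change -0.70, SE 0.28, edgeR adjusted p 0.25). The receptor gene Nr3c1 was at 86.9, 90.2 and 89.3 CPM in 3AP and at 101.8, 106.1 and 83.9 CPM in control, with overlapping groups (log2 fold change -0.13, SE 0.10, edgeR adjusted p 0.58).

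**Figure D2:**
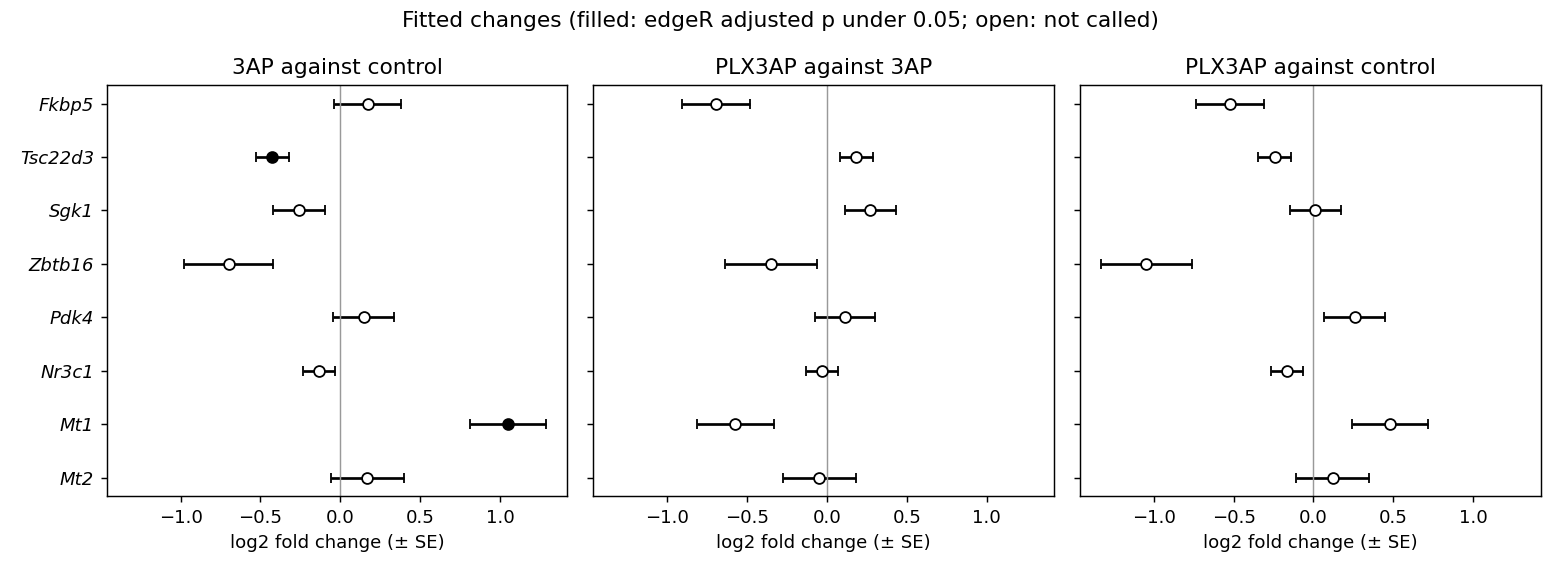
Log2 fold changes (horizontal axis, points with SE bars) of the 8 genes in the 3 comparisons from the edgeR fit to all 9 libraries; filled points have an adjusted p under 0.05. The filled points are Mt1 (1.05) and Tsc22d3 (-0.43), both in 3AP against control.

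Mt1 and Mt2 lie beside each other on chromosome 8 (GRCm38), Mt2 at chr8:94172664-94173568 and Mt1 at chr8:94179082-94180327, both on the plus strand and 5513 bases apart. Their proteins are close relatives and are usually described as regulated together. The 250 bases before each RefSeq start (GRCm38.p6, plus strand) are shown because Mt1 passed the test and Mt2 did not. Capitals mark the core of the metal response element (TGCACNC or TGCGCNC, either strand), the binding site of the zinc sensor MTF-1. Mt2 at chr8:94172368-94172617 is followed by Mt1 at chr8:94178839-94179088.
Mt2: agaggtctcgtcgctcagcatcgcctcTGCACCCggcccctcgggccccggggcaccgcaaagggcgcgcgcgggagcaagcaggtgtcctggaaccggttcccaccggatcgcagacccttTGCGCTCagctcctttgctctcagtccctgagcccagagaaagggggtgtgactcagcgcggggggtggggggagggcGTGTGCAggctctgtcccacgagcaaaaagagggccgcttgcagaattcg
Mt1: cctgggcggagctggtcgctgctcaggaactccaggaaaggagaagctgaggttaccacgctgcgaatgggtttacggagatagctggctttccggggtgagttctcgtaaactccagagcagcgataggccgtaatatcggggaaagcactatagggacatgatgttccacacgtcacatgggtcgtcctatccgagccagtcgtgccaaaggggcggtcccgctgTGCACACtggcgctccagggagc
The core occurred 3 times in the Mt2 window and 1 time in that of Mt1, and 21.4% of 32851 RefSeq windows of this length hold it. The Mt1 window ends at 94179088, inside the GENCODE gene (which starts at 94179082), and bases after either window were not searched. The counts therefore describe these windows and do not compare the whole promoters of Mt1 and Mt2. Neither window held the hexamer of the glucocorticoid response element (TGTTCT, either strand), which 16.1% of windows hold.

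Mt1 was at 938, 720 and 492 CPM in 3AP, against 328, 308 and 403 CPM in control. Every 3AP library was above every control library, and 3AP replicate 1 was the highest of all. The level in 3AP was 2.07 times that in control (a log2 fold change of 1.05, SE 0.24, edgeR adjusted p 0.047). Leaving out control replicate 1, 2 or 3, 3AP replicate 1 or 2, or PLX3AP replicate 2 or 3 ended the call (adjusted p 0.059 to 0.17), as did no filter on low counts (0.15), only the 6 libraries compared (0.069) and limma on unfiltered TPM (0.067), and the fold change stayed between 0.81 and 1.27 on the log2 scale.

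Mt2 did not pass. It was at 369, 257 and 233 CPM in 3AP and at 235, 231 and 299 CPM in control, with overlapping groups (log2 fold change 0.17, SE 0.23, edgeR adjusted p 0.78). The ratio of Mt1 to Mt2 estimated counts was 2.54, 2.80 and 2.11 in the 3AP libraries and 1.40, 1.33 and 1.35 in control. It averaged 2.48 ± 0.345 in 3AP and 1.36 ± 0.0333 in control (SD, n = 3 each), a 1.82-fold difference (log2 0.86, SE 0.12). The groups did not overlap. The exact permutation p (2-sided) was 0.1, the smallest that 3 against 3 allows, and the ratio was chosen after its values were seen. Leaving out any 1 of the 6 libraries gave log2 differences of 0.77 to 0.97, and TPM in place of counts gave 0.87.

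Mt1 estimated counts were whole in all 9 libraries. GENCODE M21 places an antisense gene, Gm45774, over 749 bases of Mt2, 432 of them exonic in both, and the strand setting of the counting is not given. Gm45774 had 20.01 to 51.1 estimated counts in any library, while Mt2 had 3619 or more. Mt3, the metallothionein of neurons and astrocytes, lies 18517 bases before Mt2. It was at 262, 248 and 194 CPM in 3AP and at 142, 141 and 187 CPM in control, and rose 1.49-fold (log2 fold change 0.58, SE 0.15, edgeR adjusted p 0.0495). Leaving out control replicate 1 or 2, 3AP replicate 1 or 2, or PLX3AP replicate 3 ended that call, with adjusted p of up to 0.18, and so did other size factors (RLE), no filter on low counts, only the 6 libraries compared, and limma on unfiltered TPM. Mt4, the metallothionein of squamous epithelia and the fourth gene of the cluster, was listed at 0 in all 9 libraries.

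**Figure D3:**
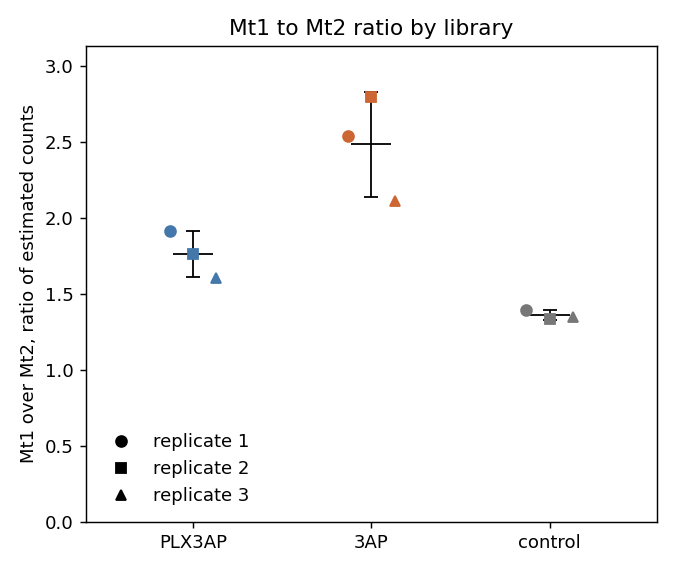
Ratio of Mt1 to Mt2 estimated counts in each library (points, linear axis from 0), with group means and SD of 3 libraries. The 3 groups do not overlap: 1.61 to 1.91 in PLX3AP, 2.11 to 2.80 in 3AP and 1.33 to 1.40 in control.

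Markers of several cell types moved with the same groups. Summed over 7 microglia markers, levels were 74.3 to 115 CPM in PLX3AP, 236 to 283 in 3AP and 129 to 139 in control, with 5 of 7 higher in 3AP against control (4 to 6 with 1 library left out) and 6 of 7 lower in PLX3AP against 3AP. In PLX3AP against control 0 of the 7 were called (1 lower without PLX3AP replicate 1 or 3), and 6 had an unadjusted p under 0.05. Over 6 endothelial markers they were 198 to 206, 267 to 288 and 189 to 201 CPM in the same groups, with 4 of 6 higher in 3AP against control (2 without 3AP replicate 1) and 3 of 6 lower in PLX3AP against 3AP (2 to 4 with 1 library left out). Of 6 blood leukocyte markers, the 5 tested (all but Cd3e) summed to 1.18 to 2.004, 8.92 to 22.2 and 0.933 to 3.75 CPM, with 4 higher in 3AP against control and 4 lower in PLX3AP against 3AP. Those 4 became 2 without control replicate 1 or 3AP replicate 1 or 2 and 1 without control replicate 2 in 3AP against control, and 2 without 3AP replicate 1 or PLX3AP replicate 2 in PLX3AP against 3AP. Of these markers, Retnlg was at 0 in 3 libraries, and Plac8 and Cd3e in 1 each. The 7 markers of astrocytes and Bergmann glia, in which metallothionein levels are high, summed to 3340 to 3531, 3243 to 3569 and 3368 to 3684 CPM, with 1 (Aqp4) lower in 3AP against control, a call lost without control replicate 1 or 2 or any 1 of the 3AP replicates (1, 2 or 3; adjusted p of up to 0.14) and with limma on TPM (up to 0.28). The 6 markers of mature oligodendrocytes summed to 6613 to 7371, 5242 to 6462 and 5877 to 7559 CPM, with 1 (Opalin) lower in 3AP against control and higher in PLX3AP against 3AP. For the mural cell list (5 genes) none passed, and sums were 214 to 231, 195 to 231 and 234 to 265 CPM. The 6 granule cell markers summed to 3889 to 4135 CPM in PLX3AP, 3333 to 3770 in 3AP and 4053 to 4263 in control, so that 3AP lay below both other groups. None of them passed with edgeR, and 4 had an unadjusted p under 0.05 in 3AP against control (median log2 fold change -0.25). The part of these cell types in the values of Mt1, Tsc22d3 and the other genes was not tested.

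The comparison of PLX3AP with 3AP asks how these genes stood when PLX3397 had been given before 3-AP. No member passed with edgeR, where 3.73% of all tested genes did (0.577% higher and 3.16% lower). With an unadjusted p under 0.05 there were 2 (Fkbp5 and Mt1), a cut at which the share over all tested genes was not counted. DESeq2 called 1 (Fkbp5), where it called 149 of 20635 genes higher and 594 lower. The median log2 fold change of the members was -0.040, against -0.0083 over all tested genes. This comparison and that of 3AP with control share the 3AP libraries, so the values of each are given on their own.

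Fkbp5 was at 15.1, 19.8 and 25.4 CPM in PLX3AP, against 39.5, 29.2 and 29.1 CPM in 3AP. All PLX3AP libraries were below all 3AP libraries, the only member for which these groups did not overlap, where 16.9% of all tested genes did not. The fitted log2 fold change was -0.69 (SE 0.21, edgeR adjusted p 0.15), and DESeq2 gave -0.69 with an adjusted p of 0.021. Over the 17 alternatives the adjusted p ranged from 0.021 to 0.41 and the log2 fold change from -0.90 to -0.54.

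Mt1 was at 380, 561 and 505 CPM in PLX3AP, against 938, 720 and 492 CPM in 3AP, and the groups overlapped through 3AP replicate 3. The log2 fold change was -0.57 (SE 0.24, edgeR adjusted p 0.38), and without 3AP replicate 3 it was -0.79 with an adjusted p of 0.0486. The ratio of Mt1 to Mt2 counts was 1.91, 1.76 and 1.61 in PLX3AP. It averaged 1.76 ± 0.153 in PLX3AP and 2.48 ± 0.345 in 3AP (log2 difference -0.49, SE 0.14, n = 3 each, exact permutation p 0.1, the smallest possible). Mt2 alone was at 199, 318 and 314 CPM in PLX3AP and overlapped 3AP (log2 fold change -0.048, SE 0.23).

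The remaining members overlapped between PLX3AP and 3AP. Tsc22d3 was at 122.5, 156.2 and 152.1 CPM in PLX3AP (log2 fold change 0.19, SE 0.10, edgeR adjusted p 0.54), and Sgk1 at 126.1, 164.6 and 182.2 CPM (0.27, SE 0.16, adjusted p 0.59). Zbtb16 was at 7.08, 10.2 and 15.8 CPM (-0.35, SE 0.29, adjusted p 0.72). Pdk4 was at 10.5, 14.3 and 16.8 CPM (0.11, SE 0.19, adjusted p 0.88), and Nr3c1 at 98.4, 83.8 and 78.5 CPM (-0.032, SE 0.10, adjusted p 0.94).

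The comparison of PLX3AP with control sets mice that received both agents against saline. No member passed with edgeR, where 0.12% of all tested genes did (0.0361% higher and 0.0842% lower). There were 3 with an unadjusted p under 0.05 (Fkbp5, Tsc22d3 and Zbtb16), again without a share over all tested genes. DESeq2 called 1 (Zbtb16), where it called 40 of 16941 genes higher and 65 lower. The median log2 fold change of the members was -0.076, against 0.0015 over all tested genes. Zbtb16 was at 7.08, 10.2 and 15.8 CPM in PLX3AP, against 24.3, 24.1 and 20.2 CPM in control. The groups did not overlap, as for 14.3% of all tested genes, and it was the only such member. The fitted value was -1.05 on the log2 scale (SE 0.29, edgeR adjusted p 0.31), and DESeq2 gave an adjusted p of 0.011. Over the 17 alternatives the adjusted p ranged from 0.011 to 0.73.

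Fkbp5 and Tsc22d3 averaged less in PLX3AP than in control without passing. Fkbp5 averaged 20.1 ± 5.15 CPM in PLX3AP and 28.9 ± 6.28 in control (log2 fold change -0.52, SE 0.21, edgeR adjusted p 0.50). Tsc22d3 averaged 144 ± 18.4 CPM in PLX3AP and 170 ± 19.4 in control (-0.24, SE 0.10, adjusted p 0.50). Sgk1 averaged 158 ± 28.7 CPM in PLX3AP and 156 ± 25.2 in control (0.012, SE 0.16), with a 95% interval of -0.35 to 0.37 on the log2 scale. Mt1 averaged 482 ± 92.5 CPM in PLX3AP and 346 ± 49.9 in control (0.48, SE 0.24, adjusted p 0.57), and Mt2 277 ± 67.8 and 255 ± 37.9 CPM in the same groups (0.12, SE 0.23). Their ratio averaged 1.76 ± 0.153 in PLX3AP and 1.36 ± 0.0333 in control, without overlap (log2 difference 0.37, SE 0.075, n = 3 each, exact permutation p 0.1, the smallest possible). Pdk4 (0.26, SE 0.19) and Nr3c1 (-0.16, SE 0.10) did not pass.

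Sgk1 is the member whose RefSeq windows held a full palindromic glucocorticoid response element (AGAACA, any 3 bases, TGTTCT), in 1 of its 6 windows. Each side of the palindrome is also the hexamer on 1 strand. Only 3 of 32851 windows in the whole table held these letters (0.00913%). The stretch around it lies at chr10:21993681-21993735 (GRCm38.p6, plus strand), inside the annotated Sgk1 gene (chr10:21882184-21999903) and before one of its alternative starts, and is shown, in capitals, because this gene showed no difference that passed in any comparison.
Sgk1: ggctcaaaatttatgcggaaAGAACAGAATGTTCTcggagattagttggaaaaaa
Of the 8 members 6 had RefSeq windows (13 in all), and the windows of Fkbp5 and Pdk4 held neither the palindrome nor the hexamer. Tsc22d3 had 3 windows, of which 1 held the hexamer (at -185 from its start) and none the palindrome. The hexamer is in 16.1% of all windows. A match describes letters and not binding.

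The members varied more between libraries of the same group than most genes did. In 22 of 24 member and group combinations the coefficient of variation of CPM was above the median of 10530 genes with a mean of 10 CPM or more, which was 8.32% in PLX3AP, 7.00% in 3AP and 6.87% in control. Zbtb16 reached 40.3% in PLX3AP. PLX3AP replicate 1 was the lowest library of its group for 7 of 8 members, where it was lowest for 40.3% of all tested genes. The exception, Nr3c1, was highest there. In 3AP, replicate 1 was highest for 5 members (Sgk1, Fkbp5, Tsc22d3, Mt1 and Mt2), where it was highest for 30.8% of all genes. In control, replicate 3 was highest for 6 members (Pdk4, Sgk1, Fkbp5, Tsc22d3, Mt1 and Mt2) and lowest for Nr3c1 and Zbtb16, where it was highest for 39.1% and lowest for 38.5% of all genes. Nr3c1 was at its lowest in PLX3AP replicate 3, in 3AP replicate 1 and in control replicate 3, each the library of its group in which the largest number of members was highest. In 3AP, however, the Nr3c1 libraries hardly differed (86.9, 90.2 and 89.3 CPM, coefficient of variation 1.93%), and this order was picked out after the values were seen.

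**Figure D4:**
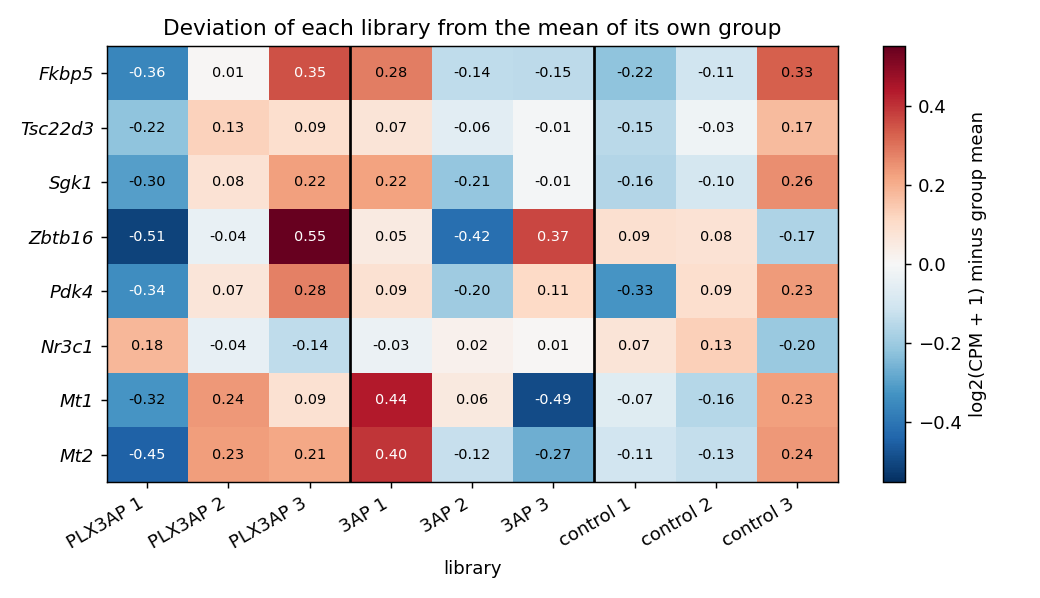
Difference in log2(CPM + 1) between each library and the mean of its own group (columns, libraries; rows, genes; red above and blue below the group mean). PLX3AP replicate 1 is below its group in 7 of 8 rows, control replicate 3 above its group in 6, and Nr3c1 is above its group in the first and below it in the second.

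Of 23 other genes that glucocorticoids induce, 2 rose in 3AP against control and none fell (median log2 fold change 0.025), and the same 2 were lower in PLX3AP than in 3AP with none higher. They were Sult1a1, a phenol sulfotransferase, and Fam107a, an actin-bundling protein induced by stress. Sult1a1 was at 7.58, 8.59 and 9.74 CPM in PLX3AP, 33.3, 32.5 and 23.6 in 3AP and 7.22, 6.27 and 11.4 in control. Its log2 fold change was 1.84 in 3AP against control (SE 0.21, edgeR adjusted p 0.00046) and -1.79 in PLX3AP against 3AP (SE 0.21, adjusted p 0.00053). Fam107a was at 833, 957 and 1031 CPM in PLX3AP, 1833, 1823 and 1308 in 3AP and 825, 892 and 834 in control (0.96, SE 0.13, adjusted p 0.00068, and -0.82, SE 0.13, adjusted p 0.0021). The calls of both genes held when any 1 library was left out, and limma on unfiltered TPM did not call Fam107a in PLX3AP against 3AP (adjusted p 0.053). The early targets Per1 and Dusp1 did not pass: Per1 had a log2 fold change of -0.29 (SE 0.11, edgeR adjusted p 0.16) in 3AP against control, and Dusp1 0.23 (SE 0.18, adjusted p 0.57). Plin4 did not pass either. It was at 5.27, 9.35 and 14.7 CPM in PLX3AP, 37.5, 16.1 and 15.9 in 3AP and 3.00, 6.32 and 10.5 in control. Its 3AP and control libraries did not overlap, as for 24.7% of all tested genes. An unadjusted p under 0.05 was found for 6 of the 23 in 3AP against control and 7 in PLX3AP against 3AP. These went both ways. In 3AP against control, Sult1a1, Fam107a and Plin4 were higher and Gpd1, Per1 and Plekhf1 lower. In PLX3AP against 3AP, Gpd1 and Plekhf1 were higher and Sult1a1, Fam107a, Map3k6, Cdkn1a and Cebpd lower. In PLX3AP against control none of the 23 passed with edgeR, and 2 had an unadjusted p under 0.05.

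Among 15 tested partners of the receptor and enzymes of corticosteroid handling, 1 rose and 1 fell in 3AP against control (median -0.16). In that comparison 7 had an unadjusted p under 0.05, all but H6pd lower in 3AP. Summed over the 15 genes, levels were 5716 to 6041 CPM in PLX3AP, 5482 to 5681 in 3AP and 6447 to 6810 in control. None passed with edgeR in PLX3AP against 3AP or PLX3AP against control, where 1 and 4 had an unadjusted p under 0.05. Hsd11b1, the reductase that regenerates active corticosterone inside cells, averaged 61.3 ± 3.64 CPM in 3AP and 75.9 ± 3.79 in control (log2 fold change -0.31, SE 0.074, edgeR adjusted p 0.031). H6pd, which supplies that enzyme with NADPH, averaged 25.4 ± 1.39 CPM in 3AP and 17.9 ± 0.904 in control (0.50, SE 0.10, adjusted p 0.010). Leaving out control replicate 1 or 3 or any 1 of the 3AP replicates (1, 2 or 3) ended the call of Hsd11b1 (adjusted p of up to 0.16), and leaving out 3AP replicate 2 that of H6pd (0.054). Hsd11b2, which inactivates corticosterone, was too low to test, at 0 counts in the PLX3AP and 3AP libraries and 7 counts over the control libraries.

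Lists of genes that handle or respond to other known inducers of metallothioneins were mixed. Of 17 tested genes of zinc handling and other metallothioneins, 1 rose in 3AP against control (Mt3) and none fell, and 1 was higher in PLX3AP than in 3AP (the zinc importer Slc39a12, log2 fold change 0.40, SE 0.079, edgeR adjusted p 0.011, lost without 3AP replicate 1 or PLX3AP replicate 3). Slc30a1, the zinc exporter that MTF-1 raises with the metallothioneins, was at a log2 fold change of -0.20 in 3AP against control (SE 0.10, adjusted p 0.37). Of 13 NRF2 and heat shock targets none rose and 1 fell in 3AP against control, the chaperone gene Hsph1 (-0.48, SE 0.077, adjusted p 0.0026), and 2 were lower in PLX3AP than in 3AP. These were Hspb1 (-1.02, SE 0.19, adjusted p 0.0100, lost without 3AP replicate 1) and Slc7a11 (-0.65, SE 0.16, adjusted p 0.045, lost without any 1 of the libraries but PLX3AP replicate 1). Of 7 tested genes of the IL-6 family and STAT3 response, 1 rose in 3AP, the receptor gene Il6ra (0.93, SE 0.20, adjusted p 0.017, lost when control replicate 1 or 3 or 3AP replicate 1 was left out), at 6.57 ± 0.638 CPM in 3AP and 3.44 ± 0.365 in control. In PLX3AP against 3AP, 2 were lower, Il6ra (-1.61, SE 0.21, adjusted p 0.00056) and the NF-kB cofactor gene Bcl3 (-2.14, SE 0.49, adjusted p 0.028, lost without 3AP replicates 1 or 2 or PLX3AP replicates 1, 2 or 3). On the authors' TPM values, limma did not call H6pd, Hsd11b1, Il6ra or the clock gene Ciart in 3AP against control, nor Slc39a12, Slc7a11 or Bcl3 in PLX3AP against 3AP, and on log2(TPM + 0.1) it did not call Il6ra there (adjusted p 0.052). Il6, Lif and Osm had at most 5 counts in any library.

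The daily clock also drives several of these genes. Of 12 clock genes 2 fell in 3AP against control, Dbp and Ciart, and 1 was higher in PLX3AP than in 3AP (Dbp). The 12 summed to 1475 to 1504 CPM in PLX3AP, 1286 to 1369 in 3AP and 1421 to 1510 in control, so that 3AP lay below both other groups. Dbp, a clock output factor, averaged 95.8 ± 12.8 CPM in PLX3AP, 61.0 ± 4.45 in 3AP and 104 ± 17.1 in control. Its log2 fold change was -0.76 in 3AP against control (SE 0.13, edgeR adjusted p 0.0042) and 0.65 in PLX3AP against 3AP (SE 0.13, adjusted p 0.012), the second lost without 3AP replicate 1 or PLX3AP replicate 2 (up to 0.074). On unfiltered TPM, limma called Dbp in neither comparison (adjusted p 0.054 and 0.077). Ciart, a clock repressor, had -0.68 in 3AP against control (SE 0.15, adjusted p 0.021), and leaving out control replicate 1 or 3 or 3AP replicate 1 or 2 ended that call. In PLX3AP against control no gene of the zinc, NRF2 and heat shock, IL-6 or clock lists passed with edgeR, where 2, 3, 1 and 2 had an unadjusted p under 0.05. For the same lists in that order, 3, 4, 5 and 4 genes had an unadjusted p under 0.05 in 3AP against control, and 2, 3, 4 and 6 in PLX3AP against 3AP. Of the clock genes among these, Dbp, Ciart and Nr1d1 were lower and Arntl higher in 3AP against control. In PLX3AP against 3AP, Dbp, Ciart, Tef, Per3 and Hlf were higher and Arntl lower. Arntl alone thus went against the rest in both comparisons, and its direction reversed along with those of Dbp and Ciart. Whether the clock genes changed together was not tested. The hour at which the tissue was taken is not given, and its part in the values of the members was not tested.

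Genes whose pattern over the 9 libraries was most like that of the 2 called members were found by the root mean square difference of log2(CPM + 1), centred on each gene's mean, among 14771 genes. For Mt1 they were Agt (0.15), Nbl1 (0.16) and Asl (0.16), where Mt1 itself varied by 0.50 on that scale. Agt, angiotensinogen, which astrocytes make in brain, averaged 110 ± 18.1 CPM in PLX3AP, 146 ± 27.9 in 3AP and 83.3 ± 11.2 in control. Nbl1, a secreted BMP antagonist, averaged 77.8 ± 10.7, 122 ± 26.8 and 57.5 ± 5.56 CPM, and Asl, argininosuccinate lyase, 20.7 ± 3.22, 27.3 ± 4.89 and 14.8 ± 1.47 CPM. For Tsc22d3, which itself varied by 0.21, they were Slc2a1 (0.058), Tubb2a (0.064) and Nsdhl (0.070). Slc2a1, the glucose transporter GLUT1, averaged 167 ± 26.3 CPM in PLX3AP, 154 ± 3.35 in 3AP and 207 ± 21.5 in control. Tubb2a, a beta-tubulin, averaged 215 ± 30.4, 177 ± 6.68 and 241 ± 14.2 CPM, and Nsdhl, an enzyme of cholesterol synthesis, 14.4 ± 1.88, 12.3 ± 0.834 and 16.1 ± 1.45 CPM.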

How the data were processed

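Per the submitters' processing notes, fastp, HISAT2, StringTie and RSEM were used on the mm10 build. The sources used here do not give versions, annotation, strand setting or filters. The authors deposited 18 files: for each of 9 libraries, 1 of expected counts (estimated reads per gene, not normalised) and 1 of TPM (scaled by the authors to transcript length and library total). Rows without a name (1884, with 0.526 to 0.66% of counts) were left out.

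The expected counts were rounded, and edgeR 4.0.16 in R 4.3.3 tested them (filterByExpr, TMM, robust quasi-likelihood fit to all 9 libraries, 1 term per group). P-values are Benjamini-Hochberg adjusted over all 16634 tested genes, with calls under 0.05. Counts of genes at an unadjusted p under 0.05 are not calls, and the share of all tested genes at that cut was not counted. The SE is the log2 fold change over the square root of F. CPM are TMM-scaled counts, and coordinates are from GENCODE M21 and RefSeq (GRCm38). No pair of replicates was alike within counting error (chi-square over its degrees of freedom, 4.93 to 29.4). Alternatives used DESeq2 1.42.0, limma 3.58.1 on log2(TPM + 1) or log2(TPM + 0.1) with a mean TPM of 0.5 or no filter, other normalisation and filters, a replicate block, and each library left out.

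The members and lists were chosen with earlier results of these data known. All 8 members are named. From each list, the called genes with the smallest p were named, at most 4 per comparison, with the 3 genes nearest in pattern to each called member, and Per1, Dusp1, Plin4 and Slc30a1 were added after their values were seen. Genes of the glucocorticoid-induced and clock lists named for an unadjusted p under 0.05 were also added after their values were seen.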

Additional observations from a re-analysis of the deposited data

How the results depend on the processing

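Over 17 alternatives, 375 of the fold changes of single members kept their direction and side of the threshold, 20 lost a call, 3 gained one and 10 changed sign. Members called in 3AP against control (2) became 1 with no filter on low counts, with only the 6 libraries compared and with limma on log2(TPM + 1) or log2(TPM + 0.1), 0 with limma on unfiltered TPM, and 0 to 2 with 1 library left out. In PLX3AP against 3AP they became 1 with DESeq2 and 0 to 1 with 1 library left out, and in PLX3AP against control 1 with DESeq2. All genes called in 3AP against control (820, 76.0% higher) became 486 (86.2% higher), 450 and 419 with limma on log2(TPM + 1), log2(TPM + 0.1) and unfiltered TPM, and 466 to 991 with 1 library left out. In PLX3AP against 3AP (621) they became 353 with log2(TPM + 0.1), 361 with unfiltered TPM and 401 to 715 with 1 library left out. In PLX3AP against control (20) they became 71 with no filter, 105 with DESeq2, 5, 7 and 4 with limma, and 7 to 153 with 1 library left out, 153 being without PLX3AP replicate 1. The cause was not tested.

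Signs changed only where no call was made and 1 library was left out. In 3AP against control, Pdk4 ranged from -0.011 (without control replicate 1) to 0.28 and Mt2 from -0.052 (without 3AP replicate 1) to 0.30. In PLX3AP against 3AP, Mt2 ranged from -0.19 to 0.17 (0.17 without 3AP replicate 1, 0.13 without PLX3AP replicate 1), Pdk4 from -0.048 to 0.26 and Nr3c1 from -0.14 to 0.034, the -0.048 and 0.034 without PLX3AP replicate 3. In PLX3AP against control, Sgk1 ranged from -0.11 to 0.15, below 0 without control replicate 1 or 2 or PLX3AP replicate 2 or 3.

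With the replicate number as a block, 0 members were called in 3AP against control (Mt1 adjusted p 0.13, Tsc22d3 0.055) and 10 genes in PLX3AP against control. Same-numbered libraries did not deviate together (correlations across genes of -0.288 to 0.131, and 0 of 9 libraries correlated best with their own number), so the numbers were not taken as pairs. Low counts limit Il6, Lif, Osm and Hsd11b2.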
